A study of Mus musculus with 2 samples.

Results

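This section describes 10 genes of insulin and insulin-like growth factor (IGF) receptor signalling in the mouse left ventricle. They were chosen by symbol, as rows of the deposited expression table that carry the names of the ligand Igf1, the binding protein Igfbp5, the receptors Insr and Igf1r, the docking proteins Irs1 and Irs2, the phosphatidylinositol 3-kinase (PI3K) subunits Pik3r1 and Pik3ca, and the kinases Akt1 and Akt2. All 10 were found among the 31920 genes of the table, which held 8410593 reads in wildtype and 8773820 in the other library. Polyadenylated RNA came from 1 wildtype male mouse sample and 1 male sample whose genotype is given as Lamp2 knockout, both of strain 129-SvEv, both 10 weeks old and with no treatment given. LAMP2 is a lysosomal membrane protein that autophagy needs, and nothing in the labels describes how the allele was made. The targeted gene does not tell the libraries apart, at 118 RPM (a gene's reads divided by the library's total, times 1000000) in wildtype and 112 RPM in the other, so each direction refers to the library labelled Lamp2 knockout.

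Insulin and IGF1 bind related receptor tyrosine kinases on the cell surface. An activated receptor phosphorylates IRS docking proteins, which recruit PI3K; the lipid that PI3K makes brings AKT kinases to the membrane, and AKT in turn acts on glucose uptake, glycogen and protein synthesis, and holds FOXO transcription factors out of the nucleus. In the heart the pathway is known for its part in postnatal growth of cardiomyocytes and in fuel choice, and it restrains autophagy through mTORC1.

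Irs2 and Pik3r1 were more than 2-fold more abundant in the library labelled Lamp2 knockout, and Igf1r came next. The docking protein gene Irs2 was at 28.4 RPM in wildtype against 114 RPM in the knockout-labelled library. The PI3K regulatory subunit gene Pik3r1 was at 137 against 297 RPM and the receptor gene Igf1r at 78.1 against 143 RPM. In such pairs of values of 1 gene, wildtype always comes first. The remaining 7 genes lay between ratios of 0.896 and 1.38. Higher and lower mean a change of at least 2-fold after 1 RPM was added to both values. Genes were taken as measured from 5 RPM upwards in whichever library had more, and all 10 passed that minimum. With 1 library per group there is no replicate check and no test of the genotypes, and the 95% intervals given with ratios are exact and cover counting error only.

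Of the 10 genes, 2 were higher by this rule and 0 were lower, while among all 10209 measured genes 3.35% were higher and 2.37% lower (5.72% either way). The median log2 ratio of the 10 was 0.22, beside 0.11 over all measured genes. The counting interval lay above a ratio of 1 for 6 of the 10 and below it for 1, beside 35.0% and 16.8% of all measured genes. Because the share of reads from the mitochondrial genome was 26.5% in wildtype and 16.2% in the knockout-labelled library, RPM of all other genes depend on it. Dividing by the median ratio lowers log2 ratios by 0.12, by a trimmed mean of log ratios by 0.12, and by the total left once mitochondrial reads and the 10 most abundant genes are taken out by 0.20. On these scales 44.8%, 44.5% and 36.4% of the genes called either way were higher, beside 58.6% on the deposited scale. Under these rescalings the median of the 10 genes was 0.10, 0.10 and 0.02, Irs2 stayed past 2-fold and Pik3r1 lay just under it.

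The cell makeup of the samples was described by marker lists. In bulk tissue, fewer cells of a type and less RNA per cell cannot be told apart. Markers of cardiomyocytes were abundant in both libraries, with a summed level of 52572 RPM in wildtype and 50274 RPM in the other and 0 of 8 at least 2-fold apart. Markers of macrophages summed to 156 and 302 RPM, with 2 of 7 measured at least 2-fold higher, C1qa at 37.7 against 82.1 RPM and C1qb at 45.8 against 121 RPM. Fibroblast markers summed to 559 and 497 RPM, most of it from Dcn at 379 and 393 RPM. Of the 8, Col1a1, Col3a1 and Lum (3 genes) were at least 2-fold lower. In all 6 lay below a ratio of 1 and 2 above it, Dcn at 1.04 (0.989 to 1.09) and Postn at 1.31 (0.847 to 2.05). Endothelial markers summed to 971 and 879 RPM (0 of 8 at least 2-fold apart) and smooth muscle and pericyte markers to 818 and 746 RPM (0 of 7). Most of the latter sum came from Rgs5 at 608 and 567 RPM. Of these 7 genes 6 lay below a ratio of 1, Tagln lowest at 0.597 (0.426 to 0.830). Cspg4 was the 1 above it at 1.63 (1.31 to 2.04), and the median log2 ratio of the 7 was −0.43. Skeletal muscle markers summed to 2677 and 3589 RPM, nearly all from Ckm, which heart also expresses. Among the others, Myh2 had 198 and 202 reads and Myh1 78 and 89, with Myod1 at 0 reads in both. Adipocyte markers summed to 6.06 and 1.71 RPM, with Lep and Retn at 0 in both, and nerve and Schwann cell markers to 1.78 and 1.03 RPM. The part of these differences in the ratios of Irs2, Pik3r1, Igf1r and Igfbp3 was not tested.

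**Figure D1:**
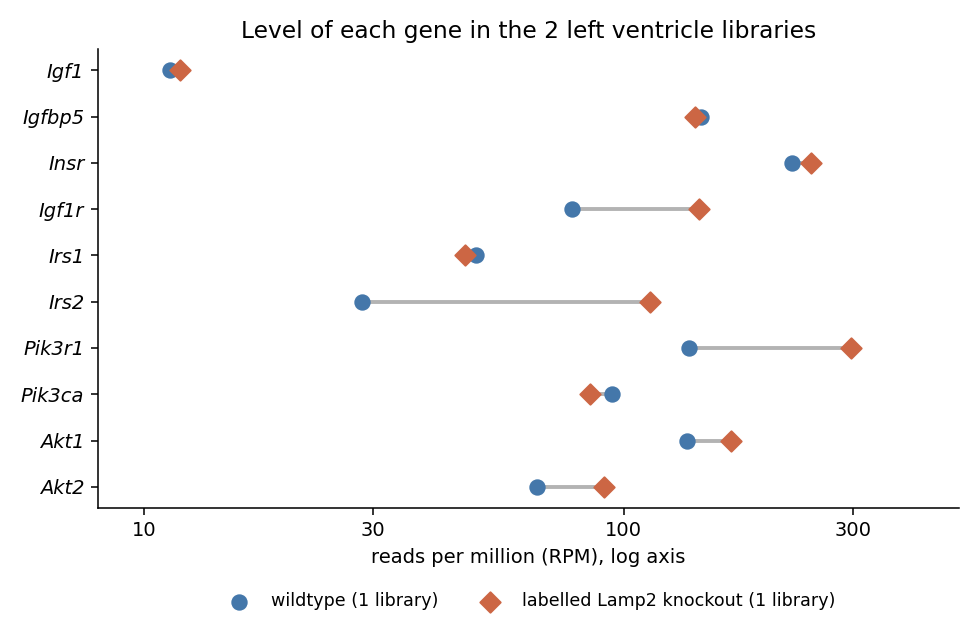
Level of each of the 10 genes in RPM (log axis) in the wildtype library (circles) and the library labelled Lamp2 knockout (diamonds), 1 library each; grey lines join the values of a gene. Irs2 (28.4 to 114 RPM), Pik3r1 (137 to 297 RPM) and Igf1r (78.1 to 143 RPM) have the longest lines.

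Igf1 encodes the growth factor IGF1, which acts locally in tissues as well as through the blood. Its row (chromosome 10, 87859056 to 87937047 in mm10) held 95 reads in wildtype and 104 in the knockout-labelled library, or 11.3 and 11.9 RPM. The ratio of 1.05 (0.787 to 1.40) had an interval that spans 1, so a difference was not detectable at this depth. Igf2, the fetal relative of Igf1, was at 42.9 RPM in wildtype and 26.0 RPM in the knockout-labelled library, a ratio of 0.605 (0.511 to 0.717). The insulin genes Ins1 and Ins2 had 0 reads in wildtype and 1 and 0 reads in the other library, and for a gene at 0 reads a limit of 3 reads corresponds to 0.357 RPM in wildtype and 0.342 RPM in the other library. Of 4 ligand genes 2 were measured, and 0 were 2-fold higher or lower.

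Igfbp5 encodes a secreted protein that binds IGFs and also attaches to matrix. Its row (chromosome 1, 72858036 to 72874865) carries the description of a cDNA clone, and was at 145 RPM in wildtype and 141 RPM in the knockout-labelled library. The ratio was 0.974 (0.899 to 1.05) on the deposited scale. Under the rescalings Igfbp5 had ratios of 0.898 (0.829 to 0.973), 0.896 (0.827 to 0.971) and 0.850 (0.785 to 0.921). Its relative Igfbp3, which encodes the main carrier of IGFs in blood, was at 36.3 against 203 RPM, a ratio of 5.59 (4.95 to 6.33) and the 16th highest log2 ratio of all measured genes. The other measured binding protein genes Igfbp4, Igfbp6 and Igfbp7 had ratios of 0.959 (0.881 to 1.04), 0.845 (0.690 to 1.03) and 1.06 (0.943 to 1.20). Exons of another gene overlap Igfbp7 on the opposite strand. Igfbp1 had 0 reads in both libraries and Igfbp2 had 0 and 1.

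The read total of Igfbp1 to Igfbp7 was 396 RPM in wildtype and 553 RPM in the knockout-labelled library. Without Igfbp3 it was 360 and 351 RPM, a ratio of 0.975 (0.927 to 1.03). Igfbp5 held the largest share of the family's reads in wildtype, 36.5% (exact 95% interval 34.9 to 38.2), and 25.4% (24.2 to 26.7) in the other library. Its own RPM was near equal on the deposited scale. Igfbp3 went from 9.16% (8.20 to 10.2) to 36.6% (35.3 to 38.0) of the family's reads. These shares are not corrected for gene length. Per kilobase of annotated exon, Igfbp7 at 51.1 RPM and Igfbp4 at 29.0 RPM lay above Igfbp5 at 24.1 RPM in wildtype. Shares within a family do not depend on how the libraries are scaled.

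Stc1 and Stc2 encode stanniocalcins, which inhibit the pappalysin proteases that cut IGF binding proteins. Stc1 had 13 reads in wildtype and 126 in the knockout-labelled library, a ratio of 9.29 (5.24 to 17.9), and an annotated gene overlaps it on the opposite strand. At 1.55 RPM in wildtype and 14.4 RPM in the other library, Stc1 passed the minimum of 5 RPM only through the latter. Stc2 was at 19.9 against 29.4 RPM, a ratio of 1.48 (1.21 to 1.81). In the list of binding proteins and their control 8 of 13 genes were measured, of which Igfbp3 and Stc1 were higher and 0 lower, with a median log2 ratio of 0.07.

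Insr encodes the insulin receptor and Igf1r the IGF1 receptor, which can also pair with each other. Insr (chromosome 8, 3150922 to 3279617) had 1884 reads in wildtype and 2155 in the knockout-labelled library, or 224 and 246 RPM. Its ratio of 1.10 (1.03 to 1.17) fell to 1.01 (0.950 to 1.08) after division by the median ratio and lay below 1, at 0.957 (0.899 to 1.02), with the third rescaling. Igf1r (chromosome 7, 67952257 to 68233667) had 657 and 1259 reads, or 78.1 and 143 RPM. Its ratio was 1.84 (1.67 to 2.02), short of the 2-fold rule, and 5.04% of measured genes had a log2 ratio as high or higher. It stayed above 1 under the 3 rescalings, between 1.60 and 1.69.

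Counted together, the receptor pair took 302 and 389 RPM. Igf1r held 25.9% (24.2 to 27.6) of these reads in wildtype and 36.9% (35.3 to 38.5) in the knockout-labelled library. The Insr to Igf1r read ratio was 2.87 in wildtype and 1.71 in the other library, so that it differed by a factor of 0.597 (0.532 to 0.669) whatever the scaling. Igf1 reads per Igf1r read went from 0.145 to 0.0826, a factor of 0.571 (0.421 to 0.775), with the Igf1 count near equal. Igf2r, the mannose 6-phosphate receptor that carries IGF2 to lysosomes, was at 378 against 385 RPM, with a ratio of 1.02 (0.970 to 1.07). The insulin receptor-related gene Insrr had 0 reads in both libraries.

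**Figure D2:**
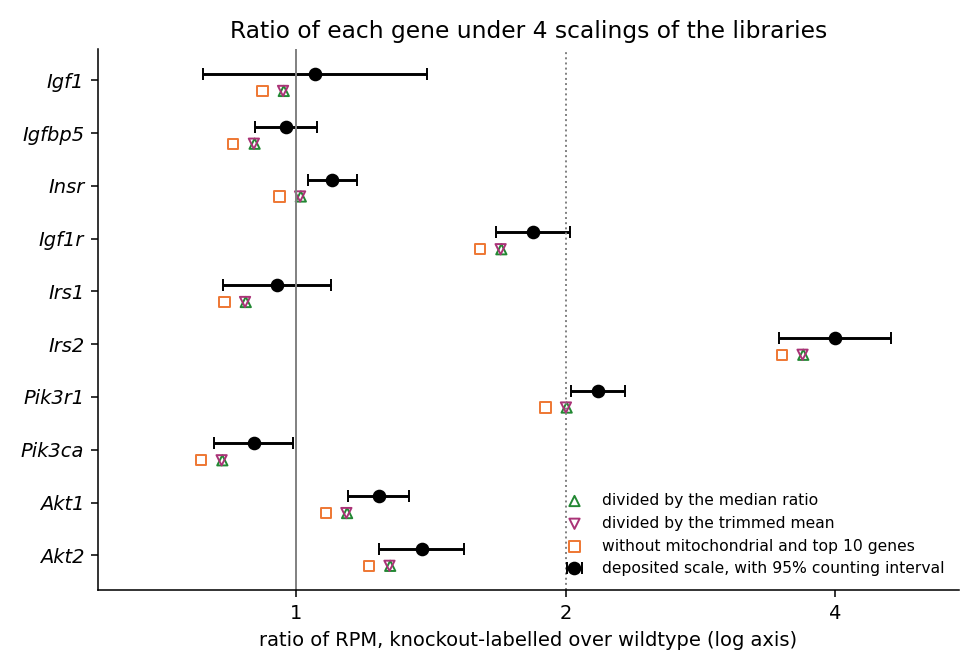
Ratio of RPM (knockout-labelled over wildtype, log axis) of the 10 genes on the deposited scale, with the exact 95% interval for counting error (black), and after 3 rescalings of the libraries (open symbols); lines mark ratios of 1 and 2. Irs2 lies beyond 2 under every scaling shown, at 3.49 to 3.99, Pik3r1 at 1.90 to 2.17 and Igf1r at 1.60 to 1.84. Insr and Igf1 move across 1.

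Irs1 and Irs2 encode the main docking proteins that link the receptors to PI3K, and Irs2 is known as a gene that FOXO factors switch on when insulin signalling is low. Irs1 (chromosome 1, 82233105 to 82291439) had 413 reads in wildtype and 410 in the knockout-labelled library, or 49.1 and 46.7 RPM, a ratio of 0.952 (0.828 to 1.09). Irs2 (chromosome 8, 10986964 to 11008430) had 239 and 996 reads, or 28.4 and 114 RPM, a ratio of 3.99 (3.47 to 4.62). This was the 42nd highest log2 ratio of 10209, and the ratio was 3.68, 3.68 and 3.49 under the rescalings. In wildtype Irs1 had more reads than Irs2, and in the knockout-labelled library the order was the opposite.

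Promoter sequences of the docking protein genes are shown because Irs1 and Irs2 differed in their ratios and because short motifs in them were alike. Each is the 250 bases before a RefSeq start site (build GRCm38.p6), read in the direction of the gene. Capitals mark the E-box CACGTG, a motif read by basic helix-loop-helix factors that include the TFEB family, and the core of the insulin response element CAAAACA, searched on both strands. The RefSeq start of Irs2 lies 499 bases upstream of the start of the deposited row, while the start of Irs1 is the same base in both. Irs4, a further docking protein gene, is added for its motifs, and Pik3r1 as the other gene that was higher.
Irs2, chr8:11008930-11009179, minus strand: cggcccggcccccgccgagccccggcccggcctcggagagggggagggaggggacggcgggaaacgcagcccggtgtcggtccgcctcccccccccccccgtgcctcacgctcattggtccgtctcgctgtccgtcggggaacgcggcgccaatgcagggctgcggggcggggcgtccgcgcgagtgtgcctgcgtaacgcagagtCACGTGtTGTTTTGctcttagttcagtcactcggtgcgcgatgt
Irs1, chr1:82291440-82291689, minus strand: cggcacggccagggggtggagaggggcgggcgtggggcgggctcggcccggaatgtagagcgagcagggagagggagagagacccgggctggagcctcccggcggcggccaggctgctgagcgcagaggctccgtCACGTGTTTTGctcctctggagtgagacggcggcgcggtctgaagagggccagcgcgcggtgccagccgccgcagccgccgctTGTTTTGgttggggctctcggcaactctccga
Irs4, chrX:141725218-141725467, minus strand: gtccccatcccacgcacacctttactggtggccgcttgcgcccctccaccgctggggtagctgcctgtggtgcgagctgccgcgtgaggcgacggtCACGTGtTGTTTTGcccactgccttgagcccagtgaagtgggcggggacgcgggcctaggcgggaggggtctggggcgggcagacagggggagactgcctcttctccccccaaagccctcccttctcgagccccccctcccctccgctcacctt
Pik3r1, chr13:101768218-101768467, minus strand: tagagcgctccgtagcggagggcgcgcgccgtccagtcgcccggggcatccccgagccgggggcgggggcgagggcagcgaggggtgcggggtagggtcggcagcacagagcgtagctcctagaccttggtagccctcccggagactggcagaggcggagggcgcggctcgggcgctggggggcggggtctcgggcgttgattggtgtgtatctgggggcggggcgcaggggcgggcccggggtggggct

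The E-box and the insulin response element core lie side by side in Irs2, starting 44 bases before the start site, and in Irs1, where the motifs overlap and start 115 bases before it. Irs1 holds a second insulin response element core 32 bases before its start. Of the 32851 promoter windows in the RefSeq table, 6.02% hold the E-box and 5.56% the insulin response element core. Both occur in 0.295% of windows, and 0.0213%, which is 7 windows, have them starting within 10 bases of each other, a distance set after the Irs sequences were seen. Irs1, Irs2 and Irs4 are among these 7. The table holds 14 windows for 9 of the 10 genes, with no entry for Insr. Among these 9 genes, Irs1 and Irs2 were the genes with either motif. A FOXO site of the form GTAAACA (3.17% of all windows) was found in 1 gene, in the window before the Akt1 start site that lies 608 bases upstream of its row. A promoter without this form may still hold another sequence that FOXO factors bind. The cAMP response element TGACGTC (2.78%) was found in 0. A match is a description of letters in this window. The pair takes a different form before Irs1 than before Irs2 and Irs4. Irs4 had 0 reads in both libraries, and any link of the form to the ratios was not tested.

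The Irs1 share of the reads of both genes was 63.3% (59.5 to 67.1) in wildtype and 29.2% (26.8 to 31.6) in the knockout-labelled library. The Irs1 to Irs2 read ratio differed by a factor of 0.238 (0.195 to 0.291). An antisense RNA gene, 9530052E02Rik, starts within the Irs2 row and overlaps it by 581 bases on the opposite strand. Its own row had 13 reads in wildtype and 60 in the other library, both far fewer than those of Irs2. Whether reads were counted by strand is unknown, so reads in the overlap cannot be told apart. Exons of an annotated gene also overlap Irs1 on the opposite strand.

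The other docking and adaptor genes were closer to equal. Irs4 had 0 reads in both libraries. Gab1, a docking protein shared with other growth factor receptors, was at 52.8 against 38.6 RPM, a ratio of 0.732 (0.634 to 0.845), and an annotated gene overlaps it on the opposite strand. The adaptor gene Sh2b1 had a ratio of 1.18 (1.01 to 1.39) and the RAS exchange factor gene Sos1 a ratio of 1.15 (0.868 to 1.53). Irs2 was the 1 gene of 9 measured in this list that was 2-fold higher, 0 were lower, and the median log2 ratio was 0.05.

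Pik3r1 encodes the p85α regulatory subunit of PI3K and shorter forms, which hold and stabilise the catalytic subunit and dock it to IRS proteins; free regulatory subunit is also known to dampen the signal. Pik3r1 (chromosome 13, 101680762 to 101768217) had 1150 reads in wildtype and 2607 in the knockout-labelled library, or 137 and 297 RPM, a ratio of 2.17 (2.03 to 2.33). The forms share most of their exons and were counted as 1 row. Its log2 ratio of 1.11 was the 247th highest, but it fell just under the 2-fold rule after division by the median ratio or the trimmed mean, and its ratio was 1.90 with the third rescaling. Pik3ca, which encodes the p110α catalytic subunit (chromosome 3, 32436151 to 32468486), was at 94.6 RPM in wildtype and 84.8 RPM in the knockout-labelled library, a ratio of 0.896 (0.810 to 0.991).

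Regulatory and catalytic subunit reads thus stood in different proportion in the libraries. There were 1.44 Pik3r1 reads per Pik3ca read in wildtype and 3.50 in the knockout-labelled library, which differ by a factor of 2.43 (2.14 to 2.74). Summed over Pik3r1, Pik3r2 and Pik3r3 the regulatory subunits took 163 and 323 RPM, and summed over Pik3ca, Pik3cb and Pik3cd the catalytic subunits took 110 and 105 RPM. Pik3r1 was 83.8% (81.7 to 85.7) of the regulatory reads in wildtype and 92.1% (91.1 to 93.1) in the other library. The other regulatory genes Pik3r2 and Pik3r3 had ratios of 0.996 (0.807 to 1.23) and 0.806 (0.506 to 1.28), of which Pik3r2 is overlapped on the opposite strand. The catalytic gene Pik3cb had 101 against 157 reads, a ratio of 1.49 (1.15 to 1.93), and Pik3cd and Pik3cg, known mostly from leukocytes, were under the minimum at 3.69 against 2.28 and 1.31 against 0.798 RPM. In the PI3K list 5 of 9 genes were measured, Pik3r1 alone was higher and 0 were lower, with a median log2 ratio of −0.01.

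Akt1 and Akt2 encode the AKT kinases, of which Akt1 is linked mainly to growth and Akt2 to glucose handling. Akt1 (chromosome 12, 112653821 to 112674276) was at 135 RPM in wildtype and 167 RPM in the knockout-labelled library, a ratio of 1.24 (1.14 to 1.34). Akt2 (chromosome 7, 27591560 to 27639453) was at 66.0 and 91.1 RPM, a ratio of 1.38 (1.24 to 1.54). Both stayed above 1 under the rescalings, though the interval of Akt1 reached 1 with the third (1.08, 0.997 to 1.17). The Akt1 to Akt2 read ratio was 2.05 and 1.83, and its change by a factor of 0.895 (0.782 to 1.02) was within counting error.

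Among the kinases that activate AKT, none reached 2-fold. Mapkap1, which encodes a subunit of the mTORC2 complex, was at 22.4 against 32.8 RPM (ratio 1.47, 1.22 to 1.77). Prr5, another part of that complex, had a ratio of 1.56 (0.946 to 2.62) from 27 and 44 reads. Of 9 measured genes 7 lay above 0 on the log2 scale, beside 61.2% of all measured genes, and the list's median of 0.22 was 0.02 with the third rescaling.

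**Figure D3:**
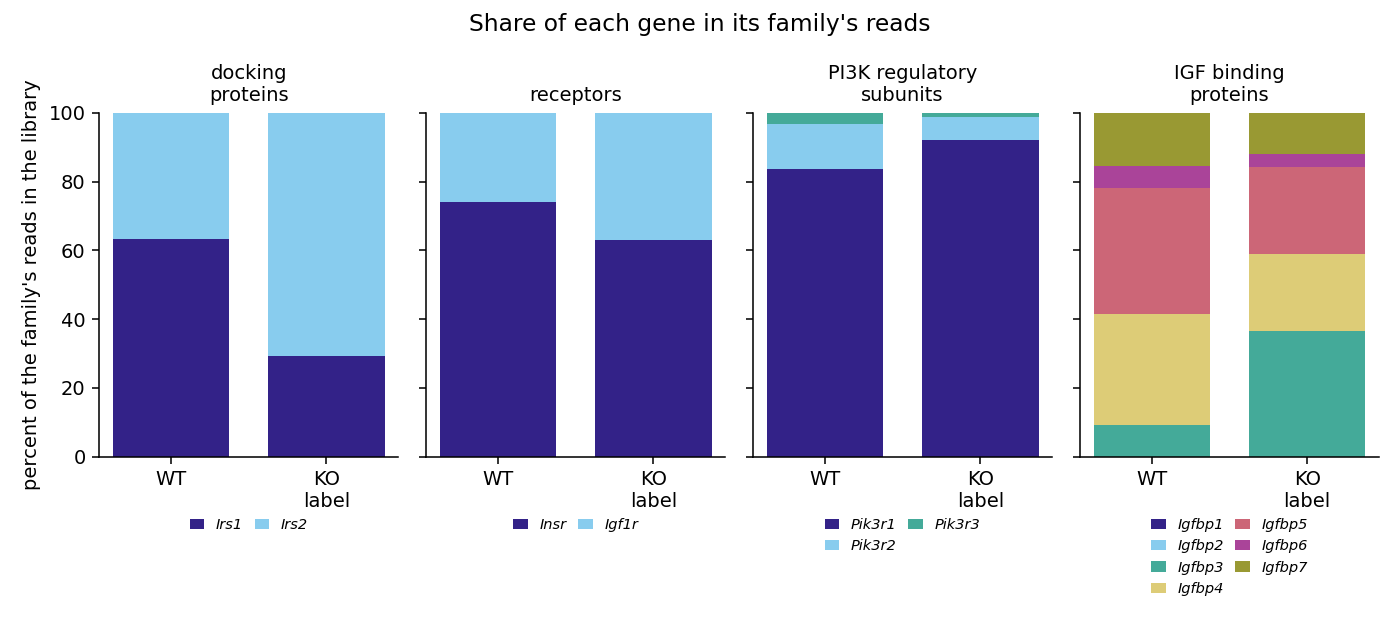
Percent of each family's reads that came from each gene, in the wildtype library (WT) and the library labelled Lamp2 knockout (KO label); bars sum to 100. The Irs2 share goes from 36.7% to 70.8%, the Igf1r share from 25.9% to 36.9% and the Igfbp3 share from 9.16% to 36.6%.

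Levels of different genes were compared per kilobase of annotated exon (RPKM, RPM divided by kilobases). In wildtype Akt1 was the most abundant of the 10 at 33.0 RPKM, followed by Igfbp5 at 24.1, Insr at 16.3, Pik3r1 at 13.6, Pik3ca at 10.4 and Akt2 at 9.25 RPKM. Irs1, Igf1r and Irs2 were close together at 5.37, 4.65 and 4.49 RPKM, and Igf1 was lowest at 1.14 RPKM. In the knockout-labelled library Irs2 stood at 18.0 RPKM, 4th of the 10 instead of 9th, level with Insr at 17.9 RPKM. Pik3r1 was 2nd at 29.5 RPKM, behind Akt1 at 40.7 RPKM. The exon lengths come from the GENCODE M21 annotation, which reaches furthest past the deposited rows for Irs2, Insr and Pik3ca. The annotated Irs2 gene begins at 10984681 and its row at 10986964. For Insr these positions are 3122061 and 3150922, and for Pik3ca 32397671 and 32436151. If reads outside a row were not counted, the levels per kilobase and places of these genes are too low. Neither length used here corrects for this. Part of the order also depends on the length used. With the longest transcript as the length, Irs2 was 9th in wildtype and 6th in the knockout-labelled library, where Insr at 26.3 RPKM and also Akt2 lay above it. Akt2 then also stood above Pik3ca and Igf1r above Irs1 in wildtype, and in the knockout-labelled library Insr stood above Igfbp5 and Igf1r above Pik3ca. Akt1 was 1st and Igf1 10th in both libraries with either length.

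**Figure D4:**
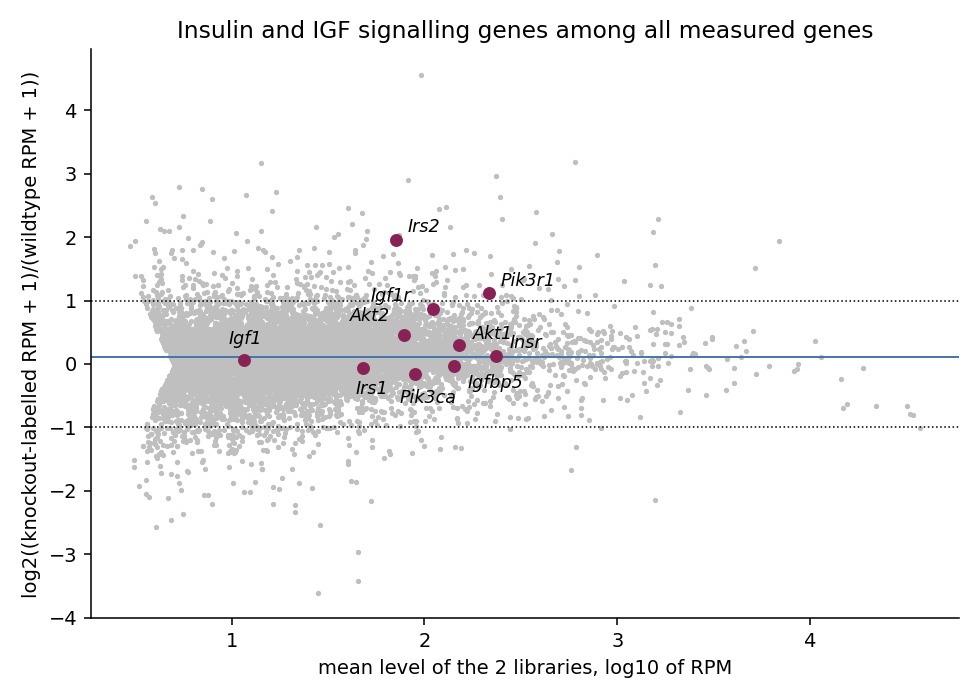
Log2 ratio (pseudocount 1 RPM) against mean level (log10 of RPM) for all 10209 measured genes (grey) with the 10 genes labelled; dotted lines mark 2-fold and the blue line the median of all genes, 0.11. Irs2 and Pik3r1 lie above the upper dotted line and Igf1r just under it, and the other 7 lie in the body of the distribution.

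The wider pathway was described with 10 lists by role, which hold 102 genes including the 10 above. Among the 85 that were measured, 5 were higher (Stc1, Igfbp3, Irs2, Pik3r1 and Eif4ebp1) and 1 was lower (Bcl2l11), beside 3.35% and 2.37% of all measured genes. The median log2 ratio of the 85 was 0.14, beside 0.11 for all genes, and −0.05 with the third rescaling, where the median of all genes was −0.07. On that scale the medians of the receptor, binding protein, docking, substrate and mTORC1 lists also turned below 0, at −0.06, −0.12, −0.14, −0.12 and −0.08.

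Genes that restrain the pathway included 17 measured of 19, with 0 at least 2-fold apart, 13 above 0 (76.5%, beside 61.2% of all measured genes) and a median log2 ratio of 0.21, which was 0.02 with the third rescaling. The pseudokinase gene Trib1 was at 15.8 against 31.7 RPM, and its log2 ratio of 0.96 fell just short of the rule. Ptpn2, a tyrosine phosphatase gene, had a ratio of 1.76 (1.34 to 2.32). Inpp4b, a lipid phosphatase gene, went the other way at 15.5 against 9.46 RPM, a ratio of 0.612 (0.459 to 0.812).

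AKT substrates went both ways. Foxo3, a transcription factor that AKT holds inactive, was at 49.2 against 89.9 RPM, a ratio of 1.83 (1.62 to 2.06), and Akt1s1, which encodes an inhibitor within mTORC1, had a ratio of 1.47 (1.33 to 1.63) with exons of another gene on the opposite strand. Tbc1d4, which holds the glucose transporter GLUT4 inside the cell until AKT acts on it, was at 45.3 against 25.2 RPM, a ratio of 0.556 (0.469 to 0.658), and passed 2-fold with the third rescaling. Bcl2l11, which encodes the cell death protein BIM, was at 20.7 against 9.35 RPM, a ratio of 0.452 (0.343 to 0.591). Of 14 measured substrates 0 were higher and 1 was lower, with a median of 0.07.

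In the mTORC1 branch Eif4ebp1, which encodes a repressor of cap-dependent translation, was at 209 against 426 RPM, a ratio of 2.04 (1.93 to 2.16) that lay at 1.78 to 1.88 under the rescalings. Rragc, a GTPase gene of amino acid sensing at the lysosome, had a ratio of 1.52 (1.29 to 1.79) and is overlapped on the opposite strand. The S6 kinase gene Rps6kb2, also overlapped, was at 13.8 against 18.5 RPM. Rptor, which encodes the scaffold of mTORC1, had a ratio of 0.761 (0.634 to 0.913), with an antisense gene. Of 9 measured genes 1 was higher and 0 lower, and the median was 0.11.

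The ERK branch, the other arm below the receptors, had 0 of 9 measured genes at least 2-fold apart. Its genes lay close together, with 8 above 0, beside 61.2% of all measured genes, and a median of 0.29 (0.11 with the third rescaling). Mapk3, which encodes the kinase ERK1, was at 53.5 against 72.5 RPM, a ratio of 1.35 (1.20 to 1.53). The kinase genes Map2k1 and Braf, which act above it, had ratios of 1.34 (1.14 to 1.58) and 1.29 (1.07 to 1.54), and exons of another gene overlap Braf on the opposite strand.

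**Figure D5:**
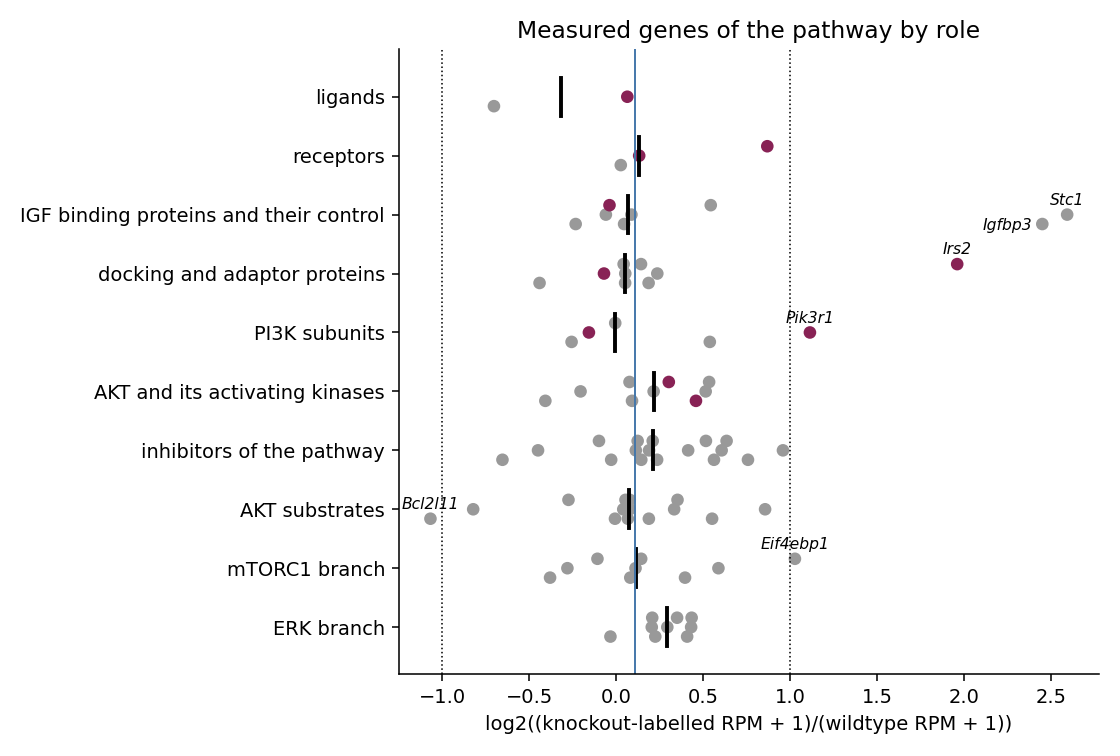
Log2 ratio (pseudocount 1 RPM) of the measured genes of each role list; purple points are the 10 genes, black bars the list medians, dotted lines 2-fold and the blue line the median of all measured genes, 0.11. The named points past 2-fold are Stc1, Igfbp3, Irs2, Pik3r1 and Eif4ebp1 on the right and Bcl2l11 on the left.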

How the data were processed

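RNA-seq of 2 left ventricle libraries was analysed, 1 per genotype. The submitters' processing notes name STAR, mm10 and GRCm38. For the counting tool, its annotation and its use of strand: not given in the sources used here. Coordinates are in mm10. Deposited values include read counts per gene symbol, whole numbers that total 8410593 in wildtype and 8773820 in the knockout-labelled library. The deposited RPM values equal count divided by that total times 1000000, with a largest difference of 5e-05. The authors' deposited fold (a ratio) and the authors' deposited p-value, whose methods are not stated, were not used. Deposited starts count from 0 and are given plus 1.

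The 10 genes and all lists were chosen with earlier results of these data known. Ratios carry exact conditional binomial (Clopper-Pearson) 95% intervals; ratios between genes carry exact conditional odds ratio intervals. Reads may be PCR copies of 1 molecule, so intervals and floors cover counting error only. The genes named are the 10, their paralogs, the 4 measured genes of each role list (3 of each cell type list) whose log2 ratios are farthest from 0, and Lamp2; a few of these are not reported here. Unmeasured ligand and receptor genes, other genes without reads, defining markers at 0 and Ckm were named outside that rule, after their values were seen. So were Dcn, Postn, Rgs5 and the genes sharing the promoter motif. The listed Hras and Adgre1 were matched to the older symbols Hras1 and Emr1. Opposite-strand overlaps and exon lengths come from GENCODE M21 and promoters from RefSeq (GRCm38.p6). The rule was tested on simulated counts with counting error alone. They held no spread between animals and no difference in mitochondrial share, so how the rule deals with either was not tested. Python 3.11.15, numpy 2.4.6, pandas 2.3.3, scipy 1.17.1 and matplotlib 3.10.9 were used. Alternatives changed the pseudocount (0.1 or 5 RPM), the minimum (1 or 20 RPM, 5 RPM in the mean, or none), the fold (1.5 or 3) and the scaling, or required an interval that leaves out 1.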

Additional observations from a re-analysis of the deposited data

How the results depend on the processing

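Each group has 1 library, so no replicate could be left out. No paired analysis was possible because each group holds 1 library. Irs2 was called higher under all 12 alternatives to the rule and the scaling, and 0 of the 10 genes were called lower under any of them. The count of the 10 that were higher, 2 as reported, was 3 at 1.5-fold (with Igf1r), and 1 (Irs2) at 3-fold and after division by the median ratio, by the trimmed mean or by the total left once mitochondrial reads and the 10 most abundant genes are taken out (the third rescaling), which set Pik3r1 just under the rule. The median log2 ratio of the 10, 0.22, was 0.10, 0.10 and 0.02 under these rescalings. Insr changed sign with the third, at −0.06, and Igf1 with each of them, at −0.04, −0.05 and −0.12. Over all genes, 342 higher and 242 lower became 194 and 75 with a pseudocount of 5 RPM, 220 and 92 with a minimum of 20 RPM, 1307 and 745 at 1.5-fold, 87 and 46 at 3-fold, and 215 and 375 with the third rescaling; 397 were lower with a minimum of 1 RPM or no filter. Of the genes called, 58.6% were higher as reported, 44.8% after division by the median ratio, 44.5% by the trimmed mean and 36.4% with the third rescaling, and 72.1% and 70.5% with the pseudocount of 5 RPM and the minimum of 20 RPM. In the role lists, 5 higher and 1 lower became 12 and 4 at 1.5-fold and 3 and 0 at 3-fold. There were 3 higher under each rescaling, 2 lower with the third, and 0 lower with a pseudocount of 5 RPM. A minimum of 20 RPM left 4 higher, without Stc1. With the longest transcript as the length, the per-kilobase ratio of Irs2 to Insr in the knockout-labelled library was 0.684 (18.0 against 17.9 RPKM as reported) and that of Irs1 to Igf1r in wildtype 0.784 (1.15). The depth limits Igf1 most, at about 100 reads per library.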

Other observations

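The 7 promoter windows in which the E-box and the core of the insulin response element start within 10 bases of each other hold 2 forms of the paired motif, read with the E-box first. In Irs2 and Irs4 the form is CACGTGtTGTTTTG, with the motifs in capitals, and in the other 5 windows it is CACGTGTTTTG, where the motifs overlap. The latter stand before Irs1, Klf11, Pcbp1, Pyroxd1 and a gene named by a cDNA clone. The search distance was set after Irs sequences were seen, so that the presence of Irs genes among the 7 is not a finding of the search. The genes did not share a direction: Irs2 had a ratio of 3.99 (3.47 to 4.62), and Pcbp1, which encodes an RNA-binding protein, 1.23 (1.12 to 1.35). Klf11, which encodes a Kruppel-like transcription factor, was at 24.4 against 14.8 RPM, a ratio of 0.608 (0.484 to 0.761), and Pyroxd1 had a ratio of 0.792 (0.577 to 1.08). Nothing is drawn from these letters about any factor.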
